A study of Homo sapiens with 12 samples.

Results

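The genes described here are 10 targets of the hypoxia-inducible factors that lie outside glycolysis: ADM, ANKRD37, HILPDA, NDRG1, VEGFA, BNIP3, BNIP3L, CA9, CA12 and INSIG2. They were chosen by name from the 26475 gene symbols of the RNA-seq count table, because several of them had risen with oxamate in parental MIAPaCa2 cells and fallen with it in oxamate-resistant MIAPaCa2 cells. Their oxamate responses are therefore given as a description, with no test. In oxamate-treated parental cells ADM, VEGFA, HILPDA, INSIG2, ANKRD37, NDRG1, BNIP3L and CA12 lay above vehicle in every library, as 29.6% of all tested genes did. In oxamate-resistant cells the same drug went with lower ADM, ANKRD37, HILPDA and VEGFA and with higher NDRG1 and BNIP3L. Of all tested genes, 22.4% lay below and 18.7% above vehicle in every oxamate-treated resistant library. INSIG2 showed no shift there beyond the spread of the libraries. CA9 was higher, with only 3 counts under vehicle. CA12 had few counts in resistant cells and a counting interval that spans no change. With vehicle and oxamate averaged, ADM, ANKRD37, INSIG2, HILPDA and CA12 were called lower in oxamate-resistant than in parental cells. These are 5 of the 8 genes that passed the filter on low counts within each cell line, beside 8.08% of all tested genes called lower. ADM and ANKRD37 were also called when libraries were scaled by their size alone. The average includes the oxamate-treated groups by which the genes were chosen, so it is not independent of that choice. Under vehicle alone INSIG2, HILPDA and CA12 differed by less than 1.5-fold.

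Hypoxia-inducible factors are pairs of a regulated alpha subunit, HIF1A or EPAS1, and a constant partner, ARNT. When oxygen is sufficient, prolyl hydroxylases mark the alpha subunit, the VHL protein binds it, and it is degraded; when oxygen is short, the alpha subunit persists, enters the nucleus and binds DNA elements with a short core sequence near its target genes. Beside glycolytic enzymes, the targets include secreted peptides that act on blood vessels, proteins that store lipid or brake sterol synthesis, receptors that mark mitochondria for removal, and enzymes that keep the pH of the cell surface. In pancreatic ductal adenocarcinoma, a dense and poorly perfused tumor, such genes are widely used as markers of hypoxia. Besides oxygen, the hydroxylases respond to metabolites and iron, and many of the targets also answer to stress and growth signals.

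MIAPaCa2 is an established human cell line of pancreatic ductal adenocarcinoma (PDAC). The 4 groups, with 3 libraries each, were parental cells given vehicle, parental cells given sodium oxamate, oxamate-resistant cells given vehicle and oxamate-resistant cells given sodium oxamate; the sample labels call them untreated or treated with an LDHA inhibitor. Oxamate inhibits lactate dehydrogenase A (LDHA), which converts pyruvate to lactate. All cells were kept in DMEM with serum under CO2, and no low-oxygen condition is named. The oxamate-resistant cells are a polyclonal population of the same line that had been cultured continuously in sodium oxamate until colonies formed, so the study holds 1 resistant population, and a feature of that population cannot be told apart from resistance in general. The sources used here do not give how long the cells were treated before RNA was taken, and nothing says that the 3 libraries of a group came from separate cultures, so p-values measure the spread between these libraries, which may be technical.

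Library depth ran from 46698729 to 114222169 expected counts, and every parental library was deeper than every resistant one. Levels are given as CPM, counts scaled to the size of the library, with TMM factors, and 3 counts, taken as the floor of measurement, correspond to 0.0283 to 0.0581 CPM; floors and intervals cover counting error only. A gene was called at a Benjamini-Hochberg adjusted p under 0.05 in edgeR's quasi-likelihood test over 14582 genes together with a fold change over 1.5. The keratins KRT8 and KRT18 and vimentin were high in all 12 libraries, and CDKN2A, CDKN2B and MTAP had 0 counts in all of them. Of 12 markers of other cell types, 5 never exceeded 3 counts, 1 of them at 0 throughout, and the 12 summed to 43.8 to 55.3 CPM in parental and 26.4 to 27.5 CPM in resistant libraries. The nuclear-retained RNAs stood apart more: the third library of oxamate-treated parental cells held 596 CPM of MALAT1 against 281 and 289 in the other libraries of its group, and the third library of vehicle-treated resistant cells 597 CPM against 244 and 273. Summed nuclear-retained RNAs ran from 321 to 357 CPM in vehicle-treated and 544 to 1187 CPM in oxamate-treated parental cells, and from 534 to 1112 and 1080 to 1407 CPM in the corresponding resistant groups. The oxamate-treated resistant libraries held 577 to 742 CPM of MALAT1, so those 2 libraries stood out within their own groups only. Below they are called the 2 libraries rich in MALAT1 or in nuclear-retained RNA. Leaving them out does not make the groups alike in these RNAs. The part of these RNAs in the results was not tested. Of the members, values without those 2 libraries are given for VEGFA, INSIG2, CA9 and CA12.

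The promoters of 6 of the 10 genes were in the RefSeq promoter table of GRCh38.p14, as windows from 250 bases before to 50 bases after the annotated start. They are shown because the genes share a regulator by textbook knowledge while their oxamate responses differ in direction. Each window was searched for the core of the hypoxia response element, ACGTG or GCGTG, on both strands; a palindromic CACGTG counts once on each strand, and a core on the reverse strand appears as CACGT or CACGC. All 6 windows held at least 1 core, against 48.4% of all 27305 windows, 62.7% of the 10575 windows of tested genes and 35 of the 43 windows of other HIF targets. The lines give 5 of them in the direction of the gene, with the cores in capitals. ADM (chr11:10304823-10305122, plus strand) holds 1 core, at position -101 from the start, and ANKRD37 (chr4:185396591-185396890, plus strand) holds 3, of which 2 form 1 palindrome. INSIG2 (chr2:118088221-118088520, plus strand) holds 2 cores on the reverse strand. CA9 (chr9:35673678-35673977, plus strand) holds a single reverse-strand core at position -18. BNIP3 (chr10:131981874-131982173, minus strand), which was hardly detected in these cells, holds 6.
ADM: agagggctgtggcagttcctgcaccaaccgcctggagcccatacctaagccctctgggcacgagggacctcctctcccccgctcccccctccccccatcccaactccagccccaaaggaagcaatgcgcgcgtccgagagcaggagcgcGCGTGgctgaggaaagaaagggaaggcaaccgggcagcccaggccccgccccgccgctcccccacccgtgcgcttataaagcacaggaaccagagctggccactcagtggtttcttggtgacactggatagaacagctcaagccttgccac
ANKRD37: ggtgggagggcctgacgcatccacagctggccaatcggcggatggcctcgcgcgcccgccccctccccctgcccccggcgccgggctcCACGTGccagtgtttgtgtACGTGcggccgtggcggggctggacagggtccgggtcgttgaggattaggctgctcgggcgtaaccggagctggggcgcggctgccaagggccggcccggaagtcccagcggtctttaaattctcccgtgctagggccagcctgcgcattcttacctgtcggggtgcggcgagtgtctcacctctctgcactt
INSIG2: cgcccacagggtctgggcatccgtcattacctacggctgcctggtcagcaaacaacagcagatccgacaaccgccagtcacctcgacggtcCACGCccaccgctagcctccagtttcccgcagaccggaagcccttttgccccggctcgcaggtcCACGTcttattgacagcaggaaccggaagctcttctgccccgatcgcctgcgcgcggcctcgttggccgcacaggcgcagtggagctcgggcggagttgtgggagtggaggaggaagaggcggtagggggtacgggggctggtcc
CA9: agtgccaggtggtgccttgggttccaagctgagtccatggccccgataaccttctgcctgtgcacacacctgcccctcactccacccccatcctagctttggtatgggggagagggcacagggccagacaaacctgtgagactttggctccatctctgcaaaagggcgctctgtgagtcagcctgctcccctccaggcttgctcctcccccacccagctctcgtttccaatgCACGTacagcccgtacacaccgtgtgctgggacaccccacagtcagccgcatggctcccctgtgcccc
BNIP3: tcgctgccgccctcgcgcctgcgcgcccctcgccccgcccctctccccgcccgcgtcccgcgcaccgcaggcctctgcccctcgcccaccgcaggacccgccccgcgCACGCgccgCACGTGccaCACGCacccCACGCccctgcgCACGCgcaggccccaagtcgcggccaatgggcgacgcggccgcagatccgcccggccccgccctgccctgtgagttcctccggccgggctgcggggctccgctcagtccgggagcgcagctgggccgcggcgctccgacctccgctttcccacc
A match is a description of these letters and not a bound site.

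**Figure D1:**
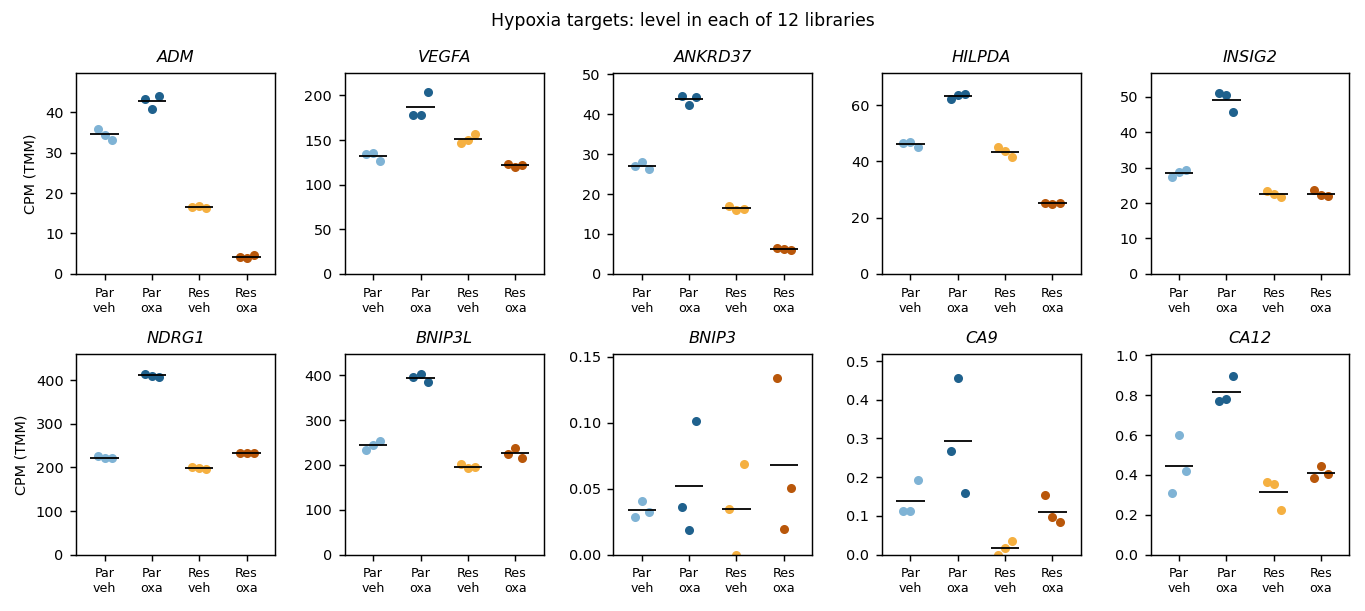
Level of each of the 10 genes (CPM with TMM scaling, linear axes from 0, 1 panel a gene) in the 12 libraries; points are libraries, the line is the mean of 3, Par and Res are parental and oxamate-resistant cells, veh and oxa are vehicle and oxamate. The oxamate-treated parental group has the highest mean in 9 of the panels, and BNIP3, CA9 and CA12 lie below 1 CPM throughout.

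Oxamate separated the secreted factors by cell line. ADM encodes adrenomedullin, a secreted peptide that dilates vessels. It stood at 36.0, 34.4 and 33.2 CPM in the vehicle-treated and at 43.3, 40.8 and 44.0 CPM in the oxamate-treated parental libraries. In oxamate-resistant cells it stood at 16.5, 16.8 and 16.3 CPM under vehicle and at 4.08, 4.05 and 4.56 CPM under oxamate. None of the 4 groups overlapped, with oxamate-treated parental cells highest, then vehicle-treated parental, vehicle-treated resistant and oxamate-treated resistant cells. The log2 fold change with oxamate was 0.31 ± 0.04 (SE, n = 3 against 3, as for all fold changes) in parental and -1.96 ± 0.06 in resistant cells, which differ by -2.27 ± 0.07 and made ADM the member with the largest difference between the responses of the 2 cell lines among those fitted.

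VEGFA encodes the vascular endothelial growth factor that drives vessel growth (chr6:43770211-43786487 in RefSeq, GRCh38.p14). Parental libraries held 134, 135 and 127 CPM under vehicle and 178, 178 and 204 CPM under oxamate. Resistant libraries held 147, 149.9 and 157 CPM under vehicle and 123, 119.8 and 122 CPM under oxamate. For VEGFA, unlike the other fitted members, vehicle-treated resistant cells lay above vehicle-treated parental cells, and none of the 4 groups overlapped. The response was 0.50 ± 0.04 in parental cells and -0.32 ± 0.05 in resistant cells, a difference of -0.81 ± 0.06. The parental library at 204 CPM is the one rich in MALAT1 for its group. Without the 2 libraries rich in MALAT1 for their groups the parental response was 0.43 and the difference -0.72.

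The genes of lipid and sterol handling differed from each other in resistant cells. HILPDA encodes a lipid droplet protein that inhibits the breakdown of stored triglyceride (chr7:128455878-128458418). Its level was 46.6, 46.7 and 45.0 CPM in vehicle-treated and 62.2, 63.6 and 64.1 CPM in oxamate-treated parental libraries. It was 45.0, 43.7 and 41.6 CPM in vehicle-treated and 25.3, 24.8 and 25.04 CPM in oxamate-treated resistant libraries. The vehicle-treated groups lay side by side and the oxamate-treated groups far from them on opposite sides, at 0.46 ± 0.03 in parental and -0.79 ± 0.03 in resistant cells, a difference of -1.25 ± 0.05.

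INSIG2 encodes a membrane protein that retains the sterol sensor SCAP and so restrains cholesterol synthesis. Parental libraries held 27.3, 28.9 and 29.4 CPM under vehicle and 51.0, 50.5 and 45.7 CPM under oxamate. Resistant libraries held 23.5, 22.7 and 21.8 CPM under vehicle and 23.7, 22.2 and 21.9 CPM under oxamate. The parental groups did not overlap, whereas the resistant ones did, and the log2 fold changes were 0.78 ± 0.05 and -0.00 ± 0.05, a difference of -0.79 ± 0.07. Without the 2 libraries rich in MALAT1 that difference was -0.87.

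ANKRD37 encodes a small protein of ankyrin repeats. It stood at 27.1, 28.0 and 26.3 CPM under vehicle and at 44.6, 42.2 and 44.3 CPM under oxamate in parental cells. In resistant cells the values were 17.0, 16.0 and 16.3 CPM under vehicle and 6.53, 6.19 and 5.92 CPM under oxamate. The 4 groups kept the order of ADM without overlap, with responses of 0.69 ± 0.04 and -1.41 ± 0.05 that differ by -2.09 ± 0.06. ANKRD37 overlaps LRP2BP and UFSP2 in the annotation, the library kit does not mark strand as far as its name tells, and its expected counts were not whole in any of the 12 libraries, so its reads are partly shared out by estimate. UFSP2 had means of 23.6 and 27.7 CPM in parental and of 19.3 and 18.9 CPM in resistant cells under vehicle and oxamate, and LRP2BP stayed below 1 CPM.

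NDRG1 and BNIP3L were higher with oxamate in both cell lines. NDRG1 encodes a cytoplasmic protein that is induced by hypoxia and by iron loss and is linked to differentiation. Its parental levels were 227, 221 and 221 CPM under vehicle and 415, 409 and 408 CPM under oxamate. Its resistant levels were 199.9, 198 and 196 CPM under vehicle and 233, 232 and 233 CPM under oxamate. The groups did not overlap, and the response was 0.88 ± 0.02 in parental and 0.23 ± 0.02 in resistant cells, a difference of -0.65 ± 0.03.

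BNIP3L and its paralog BNIP3 encode receptors on the outer mitochondrial membrane that recruit the autophagy machinery. BNIP3L stood at 234, 246 and 253 CPM in vehicle-treated and at 396, 404 and 384 CPM in oxamate-treated parental libraries. It stood at 201, 193 and 195 CPM in vehicle-treated and at 225, 237 and 216 CPM in oxamate-treated resistant libraries. Oxamate-treated parental cells lay far above the other groups, of which vehicle-treated parental and oxamate-treated resistant cells overlapped, and the responses were 0.69 ± 0.04 and 0.20 ± 0.04, a difference of -0.49 ± 0.05.

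BNIP3 was at the floor. Its counts were 3, 4 and 2 and then 2, 1 and 7 in the parental groups under vehicle and oxamate, and 2, 0 and 4 and then 7, 1 and 3 in the resistant groups. The groups overlapped, the gene did not pass the filter on low counts, and no difference was detectable at this depth.

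The carbonic anhydrases CA9 and CA12, which convert CO2 to bicarbonate and protons at the cell surface, were measured on few reads. CA9 had 12, 11 and 12 counts under vehicle and 15, 24 and 11 counts under oxamate in parental cells. In resistant cells it had 0, 1 and 2 counts under vehicle and 8, 5 and 5 counts under oxamate. The parental groups overlapped in CPM, while every oxamate-treated resistant library lay above every vehicle-treated one. Summed over libraries and scaled to their size, CA9 was 2.15-fold higher with oxamate in parental cells (exact 95% interval of the counts 1.37 to 3.41). It was 6.43-fold higher in resistant cells (1.88 to 34.1), a ratio that rests on 3 counts under vehicle. Of these 3 counts, 2 lie in the library rich in MALAT1 for its group. Without the 2 libraries rich in MALAT1 the fitted log2 fold change of CA9 went from 1.09 to 1.43 in parental cells. In resistant cells it went from 2.56 to 3.42.

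CA12 had 33, 59 and 26 counts in vehicle-treated and 43, 41 and 62 counts in oxamate-treated parental libraries. It had 21, 21 and 13 counts in vehicle-treated and 20, 23 and 24 counts in oxamate-treated resistant libraries. In CPM the oxamate-treated group lay above the vehicle-treated group in each cell line, from a range of 0.311 to 0.599 to one of 0.769 to 0.898 in parental cells and from 0.223 to 0.366 to 0.383 to 0.445 in resistant cells. The responses were 0.89 ± 0.22 and 0.38 ± 0.29, and their difference of -0.50 ± 0.37 is of the size of its error. By summed counts CA12 was 1.86-fold higher with oxamate in parental cells (exact 95% interval 1.45 to 2.39) and 1.31-fold in resistant cells (0.900 to 1.90), an interval that spans 1. Without the 2 libraries rich in MALAT1 the response in resistant cells was 0.19.

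**Figure D2:**
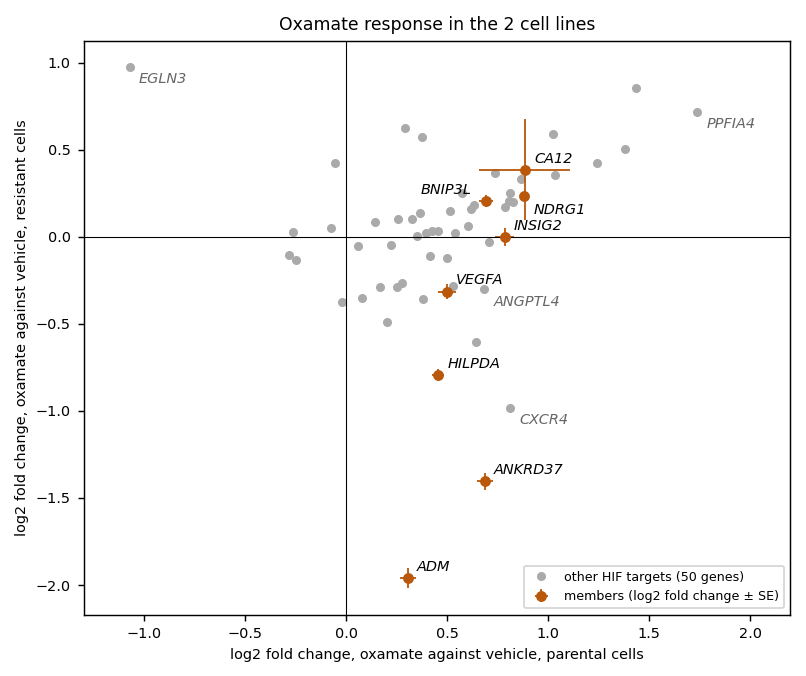
Log2 fold change with oxamate in parental cells (x axis) and in oxamate-resistant cells (y axis); orange points are members with bars of ± SE, grey points are 50 other HIF targets, and CA9 is left out because its vehicle-treated resistant libraries sum to 3 counts. ADM, ANKRD37, HILPDA and VEGFA lie below 0 on the y axis and above 0 on the x axis, and so do other HIF targets such as CXCR4 and ANGPTL4.

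Across the 9 members that passed the filter, groups did not overlap and oxamate lay above vehicle for 8 in parental cells, as for 29.6% of all 14582 genes. In resistant cells it lay above for 4 and below for 4, against 18.7% and 22.4% of all genes. CA9 is among the 4 above and passed the filter on low counts only through the parental libraries, where it is high. The 4 below had all been above in parental cells, a pattern of 5.71% of all genes. These counts follow from the choice of the genes and are read no further. Among all 14582 genes, 5.32% were called higher and 4.06% lower with oxamate in parental cells, 1.16% higher and 0.158% lower in resistant cells, and 4.99% and 2.53% had a higher and a lower response in resistant than in parental cells. The count called higher in resistant cells depended on single libraries: 169 genes became 66 without the second and 318 without the third vehicle-treated resistant library, 74 without the third oxamate-treated one, 76 with DESeq2 and 404 without the 2 libraries rich in MALAT1. The parental split of 776 higher and 592 lower became 572 and 622 without the third oxamate-treated parental library. A rise in parental and a fall in resistant cells at an adjusted p under 0.05 in edgeR's test, of any size, was found for 457 of the 14582 genes, or 3.13%. Scaled by library size alone, the median of all genes with oxamate in parental cells moved from 0.00 to -0.07 on the log2 scale, and that split to 614 and 827; the split for the difference of responses moved from 728 higher and 369 lower to 1105 and 205.

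The level in oxamate-resistant against parental cells was also averaged over vehicle and oxamate, from the same 12 libraries. This average is the difference under vehicle plus part of the difference between the responses, by which the genes were chosen. For the members its p-values are therefore those of the fit and no evidence independent of the choice. ADM was 4.59-fold lower in resistant cells (log2 -2.20 ± 0.03, edgeR adjusted p = 1.48e-17) and ANKRD37 3.41-fold lower (-1.77 ± 0.03, adjusted p = 4.88e-17). INSIG2 was 1.65-fold lower (-0.72 ± 0.03, adjusted p = 6.27e-12 in edgeR) and HILPDA 1.64-fold lower (-0.71 ± 0.02, adjusted p = 5.39e-14). CA12 was lower at -0.75 ± 0.18 with an edgeR adjusted p of 0.00120. CA9 passed the filter on low counts through the parental libraries, where it is high, and fails it within the resistant ones, so its test is left aside; its summed counts were 35 and 50 in parental and 3 and 18 in resistant cells under vehicle and oxamate. BNIP3L (-0.56 ± 0.03, 1.47-fold), NDRG1 (-0.49 ± 0.02, 1.41-fold) and VEGFA (-0.21 ± 0.03, 1.16-fold) had adjusted p-values of 3.51e-12, 4.24e-14 and 9.94e-06 in edgeR's test and stayed under the 1.5-fold limit. Without CA9, 5 of 8 members were called lower and 0 higher, beside 8.08% of all genes called lower and 20.6% called higher, and beside 14 of 50 other HIF targets called lower and 7 higher; the median was -0.72 over these 8 members, -0.36 over the other targets and 0.03 over all genes.

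Scaling mattered for these differences. With library size alone the median of all genes moved from 0.03 to 0.30, the split of calls from 3008 higher and 1178 lower to 4669 and 434, and ADM (-1.93) and ANKRD37 (-1.50) were still called, while HILPDA (-0.44), CA12 (-0.48) and INSIG2 (-0.45) fell under the 1.5-fold limit and VEGFA turned to 0.06. The summed markers of other cell types were lower in resistant than in parental libraries through COL3A1, at 14.0 against 31.7 CPM under vehicle, while CDH5 was higher at 0.860 against 0.450 CPM and COL1A1 at 1.30 against 1.00 CPM. The nuclear-retained RNAs were higher under vehicle and overlapped under oxamate, by the ranges given for them; their part was not tested. Fewer cells that express a gene and less of its RNA per cell cannot be told apart in bulk RNA.

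Under vehicle alone the members differed less between the cell lines; this comparison shares its libraries with the responses by which the genes were chosen, so for the members it is a description with no test. ADM was 2.09-fold lower in vehicle-treated resistant than in vehicle-treated parental cells (log2 -1.06 ± 0.04) and ANKRD37 1.65-fold lower (-0.72 ± 0.04, and -0.50 with library size alone). CA9 had 35 counts in parental against 3 in resistant libraries, a ratio of 7.66 (exact 95% interval 2.42 to 38.9). CA12 (-0.49 ± 0.27), INSIG2 (-0.33 ± 0.05), BNIP3L (-0.31 ± 0.04), NDRG1 (-0.17 ± 0.02) and HILPDA (-0.09 ± 0.03) differed by less than 1.5-fold, as did VEGFA in the other direction (0.19 ± 0.04). Without the 2 libraries rich in MALAT1 the value of CA12 was -0.30, and the fitted log2 value of CA9 went from -2.82 to -3.68. Of all genes, 6.09% were called lower and 17.0% higher in this comparison. With library size alone HILPDA and NDRG1 turned to 0.13 and 0.05, the median of all genes moved from 0.03 to 0.24, and the split of calls from 2474 higher and 888 lower to 3789 and 373.

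Under oxamate the difference between the cell lines is the sum of the vehicle difference and the difference of the responses, and is given without a test. All 9 fitted members lay lower in every resistant library than in every parental library under oxamate, as 40.3% of all genes did. CA9 is among the 9 and passed the filter on low counts only through the parental libraries, where it is high. The log2 difference ran from -0.62 for VEGFA and -0.80 for BNIP3L through -1.12 for INSIG2 and -1.34 for HILPDA to -2.82 for ANKRD37 and -3.33 for ADM, a 10.1-fold lower level of ADM.

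**Figure D3:**
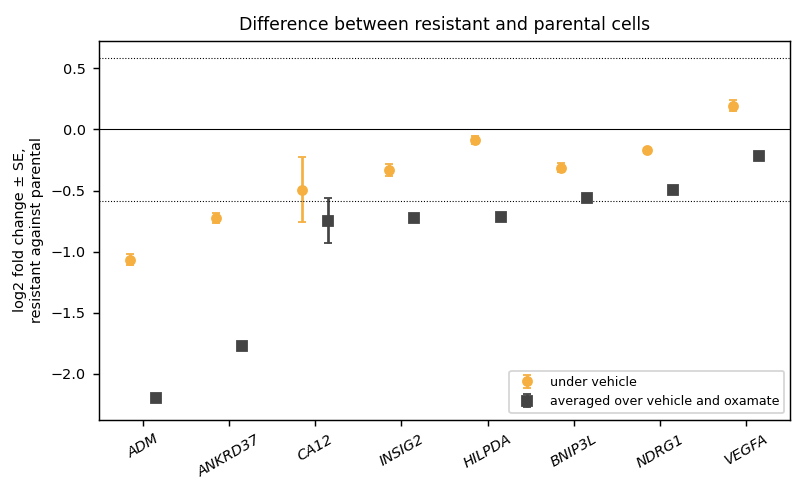
Log2 fold change of oxamate-resistant against parental cells with bars of ± SE for 8 members, under vehicle (orange circles) and averaged over vehicle and oxamate (dark squares); dotted lines mark a 1.5-fold change and CA9 is left out for its low counts. The squares lie below 0 for all 8 members and below the lower dotted line for ADM, ANKRD37, CA12, INSIG2 and HILPDA, and VEGFA is the one gene with its circle above 0; its square turned to 0.06 with library size alone.

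The other targets of the same factors were taken from a list of 54 genes outside glycolysis, of which 50 passed the filter. In parental cells 18 of the 50 were called higher with oxamate and 1 lower, beside 5.32% and 4.06% of all genes. The median log2 fold change of the 50 was 0.44. P4HA2, GYS1 and PLOD1 had the smallest p: P4HA2, a subunit of collagen prolyl hydroxylase, rose from 113 ± 2.37 to 198 ± 2.56 CPM (mean ± SD, n = 3; edgeR adjusted p = 4.08e-12), GYS1, muscle glycogen synthase, from 124 to 208 CPM, and PLOD1, a collagen lysyl hydroxylase, from 812 to 1399 CPM. The 1 gene called lower was EGLN3, a prolyl hydroxylase of the HIF alpha subunits, at 26, 23 and 15 counts under vehicle and 4, 11 and 5 under oxamate; without the first or the third oxamate-treated parental library it was no longer called.

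In resistant cells 5 of the 50 were called higher with oxamate and 1 lower, beside 1.16% and 0.158% of all genes. The median of the 50 was 0.05. TMEM45A, a membrane protein, rose from a mean of 1.10 to 1.99 CPM (edgeR adjusted p = 0.000142), PPFIA4, a liprin, from 11.0 to 18.0 CPM, and LOX, the enzyme that crosslinks collagen, from 0.940 to 1.41 CPM, the last just past the 1.5-fold limit. CXCR4, the receptor of the chemokine CXCL12, was the gene called lower: it stood at 9.39, 8.69 and 8.56 CPM and then 15.1, 15.7 and 16.1 CPM in the parental groups, and at 6.56, 6.72 and 6.23 CPM and then 3.33, 3.10 and 3.42 CPM in the resistant groups. CXCR4 thus had the order of groups seen for ADM and ANKRD37, with log2 fold changes of 0.81 ± 0.05 and -0.98 ± 0.07.

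The responses of the cell lines differed by the call threshold for 14 of these 50 genes, with 13 lower and 1 higher in resistant cells. Of all genes, 2.53% were called lower and 4.99% higher. The median difference was -0.45 over the 50 and -0.01 over all genes. Over the 8 members chosen for it that passed the filter within each cell line, it was -0.80. CXCR4 differed by -1.80 ± 0.09 (edgeR adjusted p = 7.50e-10), ANGPTL4, a secreted inhibitor of lipoprotein lipase, by -0.99 ± 0.04 (adjusted p = 1.36e-10) and PLOD1 by -0.61 ± 0.04 (adjusted p = 7.66e-09). EGLN3 differed the other way, by 2.05 ± 0.46 (edgeR adjusted p = 0.00162), on low counts. At an adjusted p under 0.05 of any size, 11 of the 50 rose in parental and fell in resistant cells, 17 rose in both and 10 rose in parental cells and passed in neither direction in resistant cells. The 11 included JMJD6, ANGPTL4, DDIT4, STC1, CXCR4, CCNG2 and HMOX1, and the 17 included the collagen-modifying genes P4HA1, P4HA2, PLOD1, LOX and LOXL2.

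**Figure D4:**
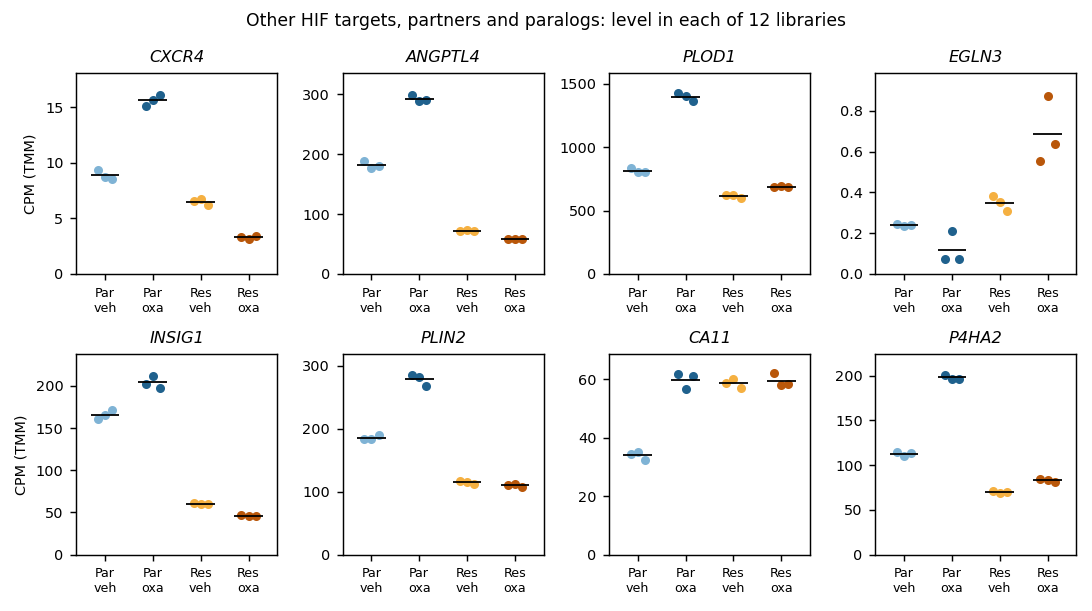
Level of 8 genes outside the 10 members (CPM with TMM scaling, linear axes from 0) in the 12 libraries, drawn as for the members. CXCR4 and ANGPTL4 are higher with oxamate in parental cells and lower with it in resistant cells, PLOD1 and P4HA2 are higher with it in both, and CA11 rises in parental cells to a level near that of both resistant groups.

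Under vehicle 6 of the 50 were called higher and 6 lower in resistant than in parental cells, beside 17.0% and 6.09% of all genes. The median of the 50 was -0.16 and turned to 0.06 with library size alone. ANGPTL4 was lower in resistant cells, at 72.5 against 182 CPM (-1.33 ± 0.03, edgeR adjusted p = 2.06e-15) and so was JMJD6, a 2-oxoglutarate-dependent oxygenase, at 30.8 against 56.9 CPM (adjusted p = 5.79e-13). STC1, a secreted glycoprotein, was higher, at 76.1 against 46.8 CPM (0.70 ± 0.03, edgeR adjusted p = 1.29e-12), MIR210HG, the host transcript of a hypoxia-induced microRNA, at 6.14 against 2.33 CPM (adjusted p = 2.07e-08) and KCTD11 at 7.15 against 3.83 CPM (adjusted p = 3.06e-08).

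Partners and paralogs of the members were examined as a list of 38 genes, of which 30 passed the filter. Most receptors for the 2 secreted factors were scarce: RAMP1, RAMP3 and KDR had 0 counts in every library, CALCRL had at most 6, and RAMP2, FLT1 and NRP2 lay below 1 CPM on average in every group. NRP1, a co-receptor of VEGFA, had 108 to 153 counts per library and was called higher with oxamate in parental cells. It went from 1.53 to 2.27 CPM there (0.59 ± 0.12, edgeR adjusted p = 0.000421) and changed by 0.07 ± 0.12 in resistant cells. It was named after its values were seen. In parental cells 4 of the 30 were called higher with oxamate and 1 lower, beside 5.32% and 4.06% of all genes. The gene called lower was ADM2, a paralog of ADM, at -0.92 ± 0.19. Between the responses of the cell lines 3 of the 30 were called lower and 0 higher in edgeR's test. Of all genes, 2.53% were called lower and 4.99% higher. At an adjusted p under 0.05 of any size 13 of the 30 were lower and 4 higher, beside 3125 and 3313 of all 14582 genes. The median difference of the 30 was -0.14. INSIG1, the paralog of INSIG2, rose from 166 to 204 CPM in parental and fell from 60.6 to 45.9 CPM in resistant cells (difference -0.70 ± 0.04, edgeR adjusted p = 1.39e-08). PLIN2, a coat protein of lipid droplets as HILPDA is a droplet protein, rose from 186 to 279 CPM in parental cells and stood at 115 and 110.2 CPM in resistant cells (-0.65 ± 0.04, edgeR adjusted p = 1.39e-08). CA11, a relative of the carbonic anhydrases without known enzyme activity, rose from 34.0 to 60.0 CPM in parental cells and stood at 58.7 and 59.5 CPM in resistant cells (-0.80 ± 0.06, edgeR adjusted p = 4.09e-08).

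The RNA of the factors themselves moved little. Of 8 genes of the HIF machinery 6 passed the filter, and 0 were called with oxamate in either cell line or for the difference of responses in edgeR's test, nor by limma-voom, by DESeq2 or at an unadjusted p under 0.05 with a fold over 1.5; at an adjusted p under 0.05 of any size there were 3, 0 and 3. HIF1A stood at means of 218 and 207 CPM in parental and of 175 and 178 CPM in resistant cells under vehicle and oxamate, and EPAS1 at 10.5, 11.2, 10.6 and 10.6 CPM in the same order. VHL was the 1 gene of the list called between the cell lines under vehicle, at 49.4 against 82.5 CPM (0.74 ± 0.04, edgeR adjusted p = 4.88e-11). The HIF prolyl hydroxylases EGLN1 and EGLN3 were listed among the other targets, outside these 8 genes. On low counts, EGLN3 was called lower with oxamate in parental cells (log2 -1.07 ± 0.37) and higher in resistant cells (0.98 ± 0.27). EGLN1 changed by 0.40 ± 0.03 and 0.02 ± 0.03 and was not called with oxamate. RNA levels do not show the amount of HIF protein.

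For each member the genes with the most similar profile were sought among tested genes whose mean level reached 1 CPM, by the root mean square (RMS) difference of centred log2 CPM over the 12 libraries, as a description. For ADM the nearest was ANKRD37 at an RMS of 0.33, followed by SSTR5 at 0.56 and PIM1 at 0.57, while the profile of ADM itself had an RMS of 1.31. ANKRD37 lay closest to CXCR4 (0.27), ADM (0.33) and PIM1 (0.36). HILPDA lay closest to HKDC1 (0.07), a hexokinase, then MAFF (0.15) and NUPR1 (0.16), which had log2 fold changes with oxamate of 0.44, 0.38 and 0.44 in parental and of -0.65, -0.45 and -0.88 in resistant cells. INSIG2 lay closest to PLOD1 (0.08), CARHSP1 (0.09) and the glycolytic ALDOA (0.09). NDRG1 was nearest to TLE2 (0.07), TUBA1A (0.07) and CSPG5 (0.08), and BNIP3L to PAM (0.05), KIAA1715 (0.06) and CSPG5 (0.06). VEGFA was nearest to DLG4 (0.08), CLDN4 (0.08) and SNHG1 (0.09). CA12 was nearest to PRELID2, PGK1 and SULT1A1 at 0.26 each, and no gene came closer to CA9 than 0.98 (LOC101927770, then ALDOC and LINC00482). ANKRD37 was thus the nearest gene of ADM. At 0.33 this pair was farther apart than NDRG1 and BNIP3L (0.09) or HILPDA and INSIG2 (0.31). The nearest genes of NDRG1, BNIP3L and INSIG2 had log2 fold changes above 0 with oxamate in both cell lines.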

How the data were processed

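RNA was extracted from parental and oxamate-resistant MIAPaCa2 cells, enriched with oligo(dT) beads and sequenced as paired ends from NEBNext Ultra libraries. The authors deposited expected counts per gene symbol, 1 column for each of 12 libraries and not pooled or normalized, as estimated with RSEM 1.2.15 after mapping with Bowtie2 2.1.0 to UCSC transcripts; the submitters' processing notes name hg38. The study's methods also describe STAR and featureCounts, but 11.6% of the values are fractional, as RSEM gives them. RSEM shares reads between overlapping or similar genes by estimate.

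Rounded to whole numbers, they were fitted with edgeR 4.0.16 under R 4.3.3, with its default low-count filter, TMM factors and the quasi-likelihood test on 4 group means, and p-values were adjusted by Benjamini-Hochberg over 14582 genes. Samples were grouped by their titles, 3 per group, and 0 columns were left unused. Depth ran from 46698729 to 114222169 expected counts. The study called genes by an unadjusted p; an adjusted p was used here. The contrasts were oxamate against vehicle in each cell line, their difference, and resistant against parental cells under vehicle and averaged over treatments. Ratios of low counts have exact binomial intervals at 95%.

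The 10 members and all lists (54 other HIF targets, 38 partners and paralogs, 8 HIF machinery genes, markers of identity, other cell types and nuclear-retained RNA) were chosen with earlier results of these data known. Named genes were the members, up to 3 genes called with the smallest p per direction, list and comparison, HIF1A, EPAS1 and the 3 nearest profiles of each member; other genes were named after their values were seen, and 1 gene that the rule names is not reported here. Promoters and positions came from RefSeq tables of GRCh38.p14, read with Python 3.11.15. Alternatives were RLE factors, library size alone, no filter, a mean count of at least 25, a replicate block, limma-voom (limma 3.58.1), DESeq2 1.42.0, only the samples compared, other thresholds and each library left out; leaving out 2 libraries rich in nuclear-retained RNA was added after seeing the data. The script was tested on simulated data. Numbers shared by replicates were not treated as pairs. The ATAC-seq and metabolite data were not analysed here.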

Additional observations from a re-analysis of the deposited data

Results flagged for a closer look

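For 4 of the members every oxamate-treated library lay above every vehicle-treated library in parental cells and below every one in resistant cells, by a log2 difference between the responses of -2.27 for ADM, -2.09 for ANKRD37, -1.25 for HILPDA and -0.81 for VEGFA. Of all 14582 genes, 5.71% had their groups placed in this way. The members were chosen for this pattern, so the difference was not tested.

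The oxamate response differed between parental and resistant cells past the call threshold in edgeR's test for 14 other HIF targets and 3 partners and paralogs, of which the naming rule takes 7: EGLN3 at 2.05 (adjusted p = 0.00162), ANGPTL4 at -0.99, CXCR4 at -1.80 and PLOD1 at -0.61 among the other HIF targets, and INSIG1 at -0.70, PLIN2 at -0.65 and CA11 at -0.80 among the partners and paralogs, with adjusted p-values from 1.36e-10 to 4.09e-08 for these 6. EGLN3 rests on 4 to 45 counts per library.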

How the results depend on the processing

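With CA9 included, 6 members were called lower when averaged over treatments, and 3 with library size alone. CA9 passed the filter only through the parental libraries, and without it the count was 5. Leaving out 1 library gave 5 to 6 lower and 0 higher. The low end, without the first or second oxamate-treated parental library, is where CA9 no longer passed the filter. For the members these counts show the dependence on processing and are no test independent of their choice. Under vehicle, a description for the members, CA12 lay at -0.72 without the first vehicle-treated parental library. At an adjusted p alone the other HIF targets had 38 higher and 4 lower in parental cells, 21 and 14 in resistant cells, 4 and 37 for the difference of responses and 11 and 27 under vehicle between the cell lines, and the partners and paralogs 4 and 13 for the difference. With a mean count of at least 25, EGLN3 left the tested genes, giving 0 lower in parental cells and 0 higher for the difference. DESeq2 called 2 other HIF targets higher in resistant cells, where edgeR called 5. With library size alone the difference of responses had 2 higher and 8 lower, 3 were lower under vehicle, and their median under vehicle turned from -0.16 to 0.0643. Without the 2 libraries rich in nuclear-retained RNA there were 0 lower in parental cells and 2 higher for the difference.

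Leaving out each library gave, for other HIF targets, 17 to 19 higher and 0 to 1 lower in parental cells, 3 to 6 higher and 1 lower in resistant cells, 1 higher and 12 to 14 lower for the difference, and 5 to 7 higher and 6 to 7 lower under vehicle; for partners and paralogs it gave 0 higher and 3 to 4 lower. The 3 in resistant cells came without the first vehicle-treated or the third oxamate-treated resistant library. LOX in resistant cells fell under 1.5-fold with RLE factors, no filter, DESeq2 and both of those omissions (log2 0.50 to 0.58), and PLOD1 (-0.51) and PLIN2 (-0.54) did for the difference with library size alone. The cause was not tested. The counts of 0 called higher, for members and for partners and paralogs, were also 0 by limma-voom, by DESeq2 and at an unadjusted p under 0.05 with a fold over 1.5.

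Replicate numbers were not used as pairs. Deviations of same-numbered libraries correlated from -0.084 to 0.202, and 7 of 12 libraries correlated best with their own number. These values do not settle whether the samples were paired. With a block for the replicate number 6 members, CA9 included, were called lower when averaged over treatments, and no count moved by over 1.5 times. Fits on only the samples compared could not be run for the difference or the average, which use all 12. Genes of few counts, such as BNIP3, CA9, CA12 and EGLN3, are limited by depth.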
